A study of Mus musculus with 12 samples.

Results

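Apolipoproteins and lipid efflux transporters were examined as 10 genes in the cortex of E4FAD mice, namely the apolipoproteins Apoe, Clu and Apod, the transporters Abca1, Abcg1, Abcg4 and Abca7, the receptor Lrp1, and the lipoprotein-remodelling proteins Lcat and Pltp. They were chosen by name, as the rows of the RNA-Seq count table whose mouse Ensembl identifiers carry these symbols in the GRCm38 annotation, and they are 10 of 50563 genes. All 10 were among the 15688 genes that passed the filter on low counts. None of them differed between mice given DPAn-6 and control mice after adjustment over all genes. The lowest unadjusted p-values belonged to Lrp1, Clu and Abca1, which all had lower mean levels in the DPAn-6 mice, and 1 control library held the lowest level of 6 of the 10 genes.

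All 12 mice were of the strain E4FAD with the genotype APOE4+/+, 5FAD-/+, so treated and control mice alike carried human APOE4 in place of the mouse gene and the transgenes of the 5xFAD line, which cause amyloid to build up. Vehicle was given by gavage to the 7 CTRL mice, 2 of them 12 months and 5 of them 14 months old. The omega-6 fatty acid docosapentaenoic acid was given by gavage to the 5 DPAn-6 mice, 2 of them 12 months and 3 of them 14 months old. Each mouse gave 1 library of poly(A)-selected RNA from brain cortex, and both groups held both sexes, which the labels do not assign to individual animals. The study's comparison asked how this fatty acid affects gene expression in brains with advanced amyloid pathology. There was no group without the transgenes, with another APOE allele or with the mouse Apoe gene, so no level here can be set against a brain without the transgenes.

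In the brain, cholesterol and phospholipid leave astrocytes and microglia through ATP-binding cassette transporters and are taken up by apolipoproteins, mainly ApoE and clusterin, which form particles resembling high-density lipoprotein. LCAT esterifies the cholesterol of these particles, PLTP moves phospholipid between them, and receptors of the LDL receptor family, LRP1 among them, take them into cells. Abca1, Abcg1 and Apoe are known targets of the sterol-sensing liver X receptors (LXR), and APOE, CLU and ABCA7 are genes at which common variants change the risk of Alzheimer's disease.

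The count on Apoe needs care in these animals. In targeted-replacement mice, the coding exons of mouse Apoe are exchanged for those of human APOE, while the mouse promoter and the non-coding first exon remain. The reads were aligned to the mouse genome GRCm38, with no mention of an added human APOE sequence. A read of the mouse first exon therefore counts on Apoe as usual. A read of the human exons counts there only where the human bases are similar enough to the mouse ones for the aligner to place it, and otherwise it is lost or can be placed elsewhere. In the mouse transcript Apoe-206 the first exon (chromosome 7, 19699011 to 19699188) holds 178 of 1408 bases, or 12.6%, and the other 3 of its 4 exons hold the 933 coding bases. A table of counts per gene does not show where in the gene the reads lay, so the share of human reads on Apoe was not measured, and the values below are reads placed on the mouse gene model and not the level of human APOE. All 12 mice share this limit.

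Promoter sequence is shown for the genes whose regulation these results touch. Of the 10 genes, 7 had a window in the RefSeq promoter set of GRCm38.p6. The 250 bases before the start of Apoe (chr7:19699189-19699438, minus strand) are part of the mouse regulatory sequence that still drives the human coding exons in these animals. The same window of Abca1 (chr4:53159896-53160145, minus strand) is shown because it holds a direct repeat of the kind LXR binds. Capitals mark that match, which reads on the opposite strand as GGTTA and GGTCA in the same direction with 5 bases between them and ends 52 bases before the start.
Apoe: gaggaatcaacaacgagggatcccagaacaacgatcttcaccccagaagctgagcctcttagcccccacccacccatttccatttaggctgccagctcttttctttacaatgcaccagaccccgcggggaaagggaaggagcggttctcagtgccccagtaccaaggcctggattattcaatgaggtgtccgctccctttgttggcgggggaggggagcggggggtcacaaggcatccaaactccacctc
Abca1: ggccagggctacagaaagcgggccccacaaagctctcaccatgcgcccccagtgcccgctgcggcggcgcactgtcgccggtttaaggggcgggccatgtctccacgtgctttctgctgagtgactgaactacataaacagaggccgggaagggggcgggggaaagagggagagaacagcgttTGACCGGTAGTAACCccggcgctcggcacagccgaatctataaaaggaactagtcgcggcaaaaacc
Searched on both strands from 250 bases before to 50 bases after each start, this pair of half-sites was present in 0.0487% of 32851 windows and, among these genes, in that of Abca1. The related pair GGTCA and GGTCA, with the same spacing, was present in 0.0761% of the windows and in none of theirs. A match describes these letters and is not evidence of binding.

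Total counts on genes ranged from 15208803 to 26520251 per mouse, and the lowest count of any of the 10 genes in any mouse was 289, in Abca7. Levels are given as log2 CPM, which is the log2 of the count plus 0.5 after scaling every library to the same total. The library of CTRL replicate 3 stood apart. Its genes over 57% GC differed from the other CTRL mice by a median of −0.62 on the log2 scale and its genes under 42% GC by 0.61. That contrast between the GC classes was −1.23 in this library and between −0.41 and 0.36 in the other 11 mice. Where a fit without this mouse was run, results that rest on it are given with and without it.

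Divided by the length of their exons, the 10 genes spanned a wide range of levels, and these levels were compared as log2 CPM per kilobase. Clu was highest, at 8.28 ± 0.19 (SD, n = 12), and ranked 47 of 15660 genes. Apod followed at 6.18 ± 0.13, Lrp1 at 5.81 ± 0.24, Pltp at 5.08 ± 0.30, Apoe at 4.52 ± 0.35 and Lcat at 4.06 ± 0.20. The transporters were lowest, with Abcg4 at 3.81 ± 0.16, Abcg1 at 3.46 ± 0.13, Abca1 at 2.85 ± 0.22 and Abca7 at 2.38 ± 0.35. Of the 9 neighbouring pairs in this order, the ranges over mice did not overlap in 1, Clu above Apod. Within mice the order held more closely, since the higher gene of each neighbouring pair was higher in 11 or 12 of 12 mice. The place of Apoe, rank 1950, is that of the reads placed on the mouse gene model and used the length of that model.

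None of the 10 genes had an adjusted p below 0.05 (edgeR's quasi-likelihood test, Benjamini-Hochberg adjustment over 15688 genes), against 1.55% of all genes tested in either direction, 1.14% lower and 0.408% higher. At an unadjusted p below 0.05 there were 3 by edgeR, all lower in DPAn-6, against 14.5% of all genes in either direction, 9.02% lower and 5.51% higher. DESeq2 and limma-voom, run on the same counts, gave 3 each. Their shares over all genes are not given here, so these 2 counts are not separate support. No gene had groups that did not overlap, against 3.22% of all genes in either direction and 1.49% lower. None had an exact permutation p below 0.05, against 15.8% in either direction and 7.15% lower. The log2 fold change was negative for 6 of the 10 and positive for 4, against 51.3% negative over all genes, and its median was −0.10 against −0.0047. By role, all 3 apolipoproteins and the receptor had negative values, the transporters were split with 2 negative and 2 positive, and both remodelling proteins were slightly positive.

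**Figure D1:**
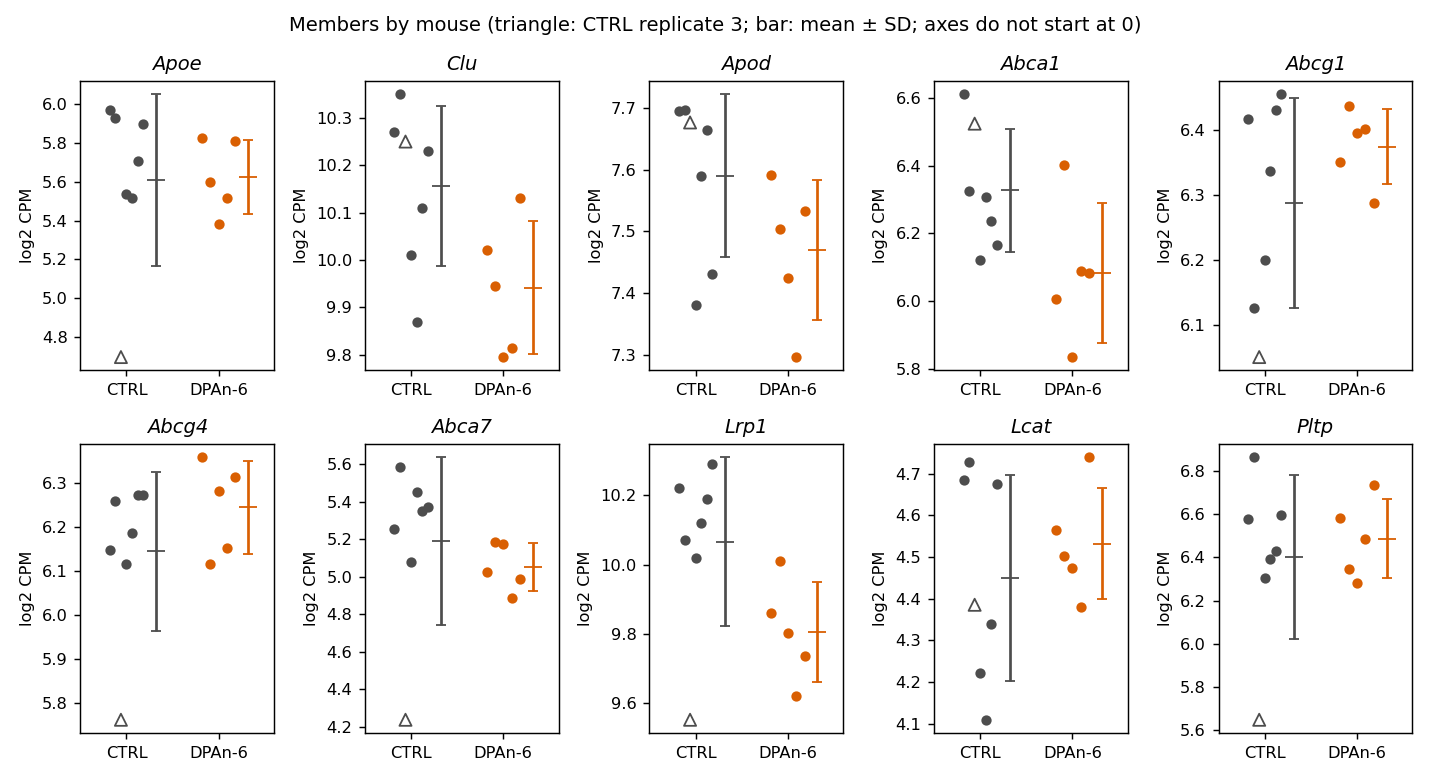
Levels of the 10 genes in log2 CPM (y axis, not starting at 0) in each of 7 CTRL and 5 DPAn-6 mice, with mean ± SD beside the points and CTRL replicate 3 as an open triangle. The triangle is the lowest of all 12 mice for Apoe, Abcg1, Abcg4, Abca7, Lrp1 and Pltp, and the groups overlap for every gene.

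Apoe (ENSMUSG00000002985, chromosome 7, 19696109 to 19699188, minus strand) encodes the main apolipoprotein of brain lipoproteins, made mostly by astrocytes and by activated microglia. In CTRL it ranged from 4.70 to 5.97 log2 CPM with a median of 5.71, and in DPAn-6 replicates 1 to 5 it was 5.83, 5.60, 5.38, 5.52 and 5.81. The DPAn-6 values all lay within the CTRL range, whose lowest value was that of CTRL replicate 3 at 397 counts. The next lowest CTRL mouse was at 5.52. The log2 fold change was −0.05 (SE 0.17, edgeR adjusted p = 0.939), while the difference of plain means was 0.02 (two-sided exact permutation p = 0.963), so the 2 estimates had opposite signs near 0. Without CTRL replicate 3 the log2 fold change was −0.15 (SE 0.10, edgeR adjusted p = 0.378).

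Clu (ENSMUSG00000022037, chromosome 14, 65968483 to 65981547, plus strand) encodes clusterin, a lipid-binding chaperone that astrocytes secrete. Its CTRL levels ran from 9.87 to 10.35 with a median of 10.23, and its DPAn-6 levels were 10.02, 9.95, 9.80, 9.82 and 10.13. All 5 DPAn-6 mice lay below the CTRL median and 2 lay below every CTRL mouse. The log2 fold change was −0.24 (SE 0.09), a ratio of 0.847, with an unadjusted edgeR p of 0.0164 and an adjusted edgeR p of 0.212. The exact permutation p was 0.0505.

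Apod (ENSMUSG00000022548, chromosome 16, 31296192 to 31314808, minus strand) encodes apolipoprotein D, a lipocalin made by oligodendrocytes, astrocytes and perivascular cells. It ranged from 7.38 to 7.70 with a median of 7.66 in CTRL and was 7.59, 7.50, 7.42, 7.30 and 7.53 in DPAn-6. All 5 treated mice lay below the CTRL median, but only 1 lay below the CTRL range. Its log2 fold change was −0.15 (SE 0.08, edgeR adjusted p = 0.413).

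Abca1 (ENSMUSG00000015243, chromosome 4, 53030787 to 53159895, minus strand) encodes the transporter that loads lipid onto ApoE. Its levels were 6.12 to 6.61 in CTRL, with a median of 6.31, and 6.01, 6.40, 5.84, 6.09 and 6.08 in DPAn-6. Of the 5 treated mice, 4 lay below every CTRL mouse and DPAn-6 replicate 2 lay above the CTRL median. The log2 fold change was −0.27 (SE 0.11), a ratio of 0.831, with an unadjusted edgeR p of 0.0256 and an adjusted edgeR p of 0.260, and the exact permutation p was 0.0593.

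Abcg1 (ENSMUSG00000024030, chromosome 17, 31057675 to 31117988, plus strand) encodes a transporter that passes sterol to particles that already hold lipid. It ranged from 6.05 to 6.46 with a median of 6.34 in CTRL and was 6.35, 6.44, 6.40, 6.40 and 6.29 in DPAn-6. The treated mice lay close together inside the CTRL range, and the log2 fold change was 0.06 (SE 0.07, edgeR adjusted p = 0.796). Abca1 counts per Abcg1 count, which do not depend on library totals, ran from 0.818 to 1.389 in CTRL and from 0.678 to 0.975 in DPAn-6, so the ratio overlapped between groups, and its highest value was that of CTRL replicate 3.

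Abcg4 (ENSMUSG00000032131, chromosome 9, 44273188 to 44288615, minus strand) encodes a close relative of ABCG1 found mainly in neurons. It ranged from 5.76 to 6.27 with a median of 6.19 in CTRL and was 6.36, 6.12, 6.28, 6.15 and 6.31 in DPAn-6. The groups overlapped, and the log2 fold change was 0.07 (SE 0.08, edgeR adjusted p = 0.761).

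Abca7 (ENSMUSG00000035722, chromosome 10, 79996494 to 80015572, plus strand) encodes a phospholipid transporter linked to phagocytosis. It was the lowest of the 10 genes per kilobase, with 289 to 854 counts. CTRL levels ran from 4.24 to 5.59 with a median of 5.35, and DPAn-6 levels were 5.03, 5.19, 5.17, 4.89 and 4.99. All 5 treated mice lay below the CTRL median and above CTRL replicate 3. With all mice the log2 fold change was −0.21 (SE 0.16, edgeR adjusted p = 0.626).

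Lrp1 (ENSMUSG00000040249, chromosome 10, 127538161 to 127621148, minus strand) encodes a large endocytic receptor for ApoE and many other ligands, made by neurons, astrocytes, microglia and mural cells. It ranged from 9.55 to 10.29 with a median of 10.12 in CTRL and was 9.86, 10.01, 9.80, 9.62 and 9.74 in DPAn-6. All 5 treated mice lay below the CTRL median, and the overlap was due to CTRL replicate 3 at 9.55, since the next lowest CTRL mouse was at 10.02. The log2 fold change was −0.29 (SE 0.10), a ratio of 0.818, with an unadjusted edgeR p of 0.0120 and an adjusted edgeR p of 0.183. The exact permutation p was 0.0657.

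Lcat (ENSMUSG00000035237, chromosome 8, 105939551 to 105943382, minus strand) ranged from 4.11 to 4.73 with a median of 4.39 in CTRL and was 4.57, 4.50, 4.47, 4.38 and 4.74 in DPAn-6. Pltp (ENSMUSG00000017754, chromosome 2, 164839518 to 164857711, minus strand) ranged from 5.65 to 6.87 with a median of 6.43 in CTRL and was 6.58, 6.35, 6.28, 6.49 and 6.74 in DPAn-6. Both overlapped widely between the groups, with log2 fold changes of 0.05 (SE 0.12, edgeR adjusted p = 0.899) for Lcat and 0.03 (SE 0.15, edgeR adjusted p = 0.949) for Pltp. Pltp shares 495 exonic bases, 19.3% of its exons, with Ctsa on the opposite strand. How the counting treated strand is not stated, so whether reads of these bases counted on Pltp is not known. None of the other 9 genes overlapped an exon of another gene.

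Leaving out CTRL replicate 3 changed which genes passed the test. Lrp1 then had a log2 fold change of −0.36 (SE 0.06, edgeR adjusted p = 0.00463) and Abca7 one of −0.32 (SE 0.08, edgeR adjusted p = 0.0339), both lower in DPAn-6. The share of all genes called also went up without this mouse, to 6.1% in either direction and 3.98% lower, so 2 of 10 has to be read against that share. In the same 11 mice, the levels of Lrp1 no longer overlapped, as for 5.24% of all genes, and its highest DPAn-6 mouse, at 10.0131, was just below its lowest CTRL mouse, at 10.0152. Its exact permutation p was 0.00217, the smallest the 11 mice allow, and that of Abca7 was 0.0152, in a comparison chosen after the data were seen in which 21.9% of all genes were below 0.05. Clu and Abca1 kept similar values, −0.22 and −0.23, with edgeR adjusted p-values of 0.126 and 0.171.

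**Figure D2:**
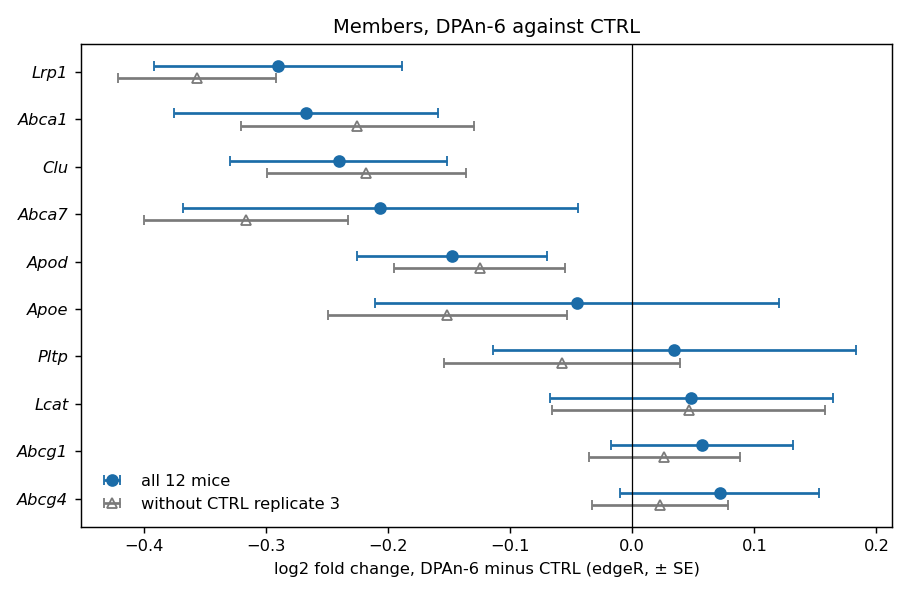
Log2 fold change of each gene, DPAn-6 minus CTRL, with its standard error (x axis), from all 12 mice (circles) and without CTRL replicate 3 (triangles). Lrp1, Abca1 and Clu lie furthest below 0 with all mice, and Abca7 moves from −0.21 to −0.32 without that library.

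How far CTRL replicate 3 lay from the other CTRL mice went broadly, but not in strict order, with the GC content of the genes. The 5 genes whose longest transcript is over 57% GC were all below the median of the other 6 CTRL mice, with differences of −0.46 for Abcg4, −0.60 for Lrp1, −0.86 for Pltp, −1.11 for Apoe and −1.12 for Abca7 on the log2 scale. Abca1 and Apod, near 48% GC, were above that median by 0.25 and 0.05. Clu and Lcat, near 56% GC, differed from it by 0.08 and −0.12. Abcg1 did not follow that order, since at 52.7% GC it differed by −0.33, further down than Clu or Lcat. After removal of the dependence on transcript length and GC content within each library, the difference was −0.05 for Abcg4, −0.40 for Lrp1, −0.48 for Apoe and −0.69 for Abca7. It was −0.38 for Pltp, −0.19 for Abcg1, −0.002 for Apod and 0.07 for Abca1, but it was then 0.45 for Clu and 0.41 for Lcat. With the trend removed and all mice kept, none of the 10 genes passed the adjusted test. Lrp1 was then at −0.14 with an unadjusted edgeR p of 0.0875, while Clu at −0.27, Abca1 at −0.20 and Apod at −0.17 had unadjusted edgeR p-values of 0.0177, 0.0497 and 0.0376. On trend-removed levels, Lrp1 in CTRL replicate 2 was at 9.86, below DPAn-6 replicates 1, 2 and 3 at 9.93, 10.03 and 9.89. The groups then overlapped for Lrp1 without CTRL replicate 3 as well. With the trend removed and CTRL replicate 3 left out, a combination added after the data were seen, 1 passed the adjusted test, Abca7 at −0.25 (edgeR adjusted p = 0.0185). Lrp1 was at −0.19 (edgeR adjusted p = 0.0514), and the share of all genes called in these trend-removed fits is not given here.

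**Figure D3:**
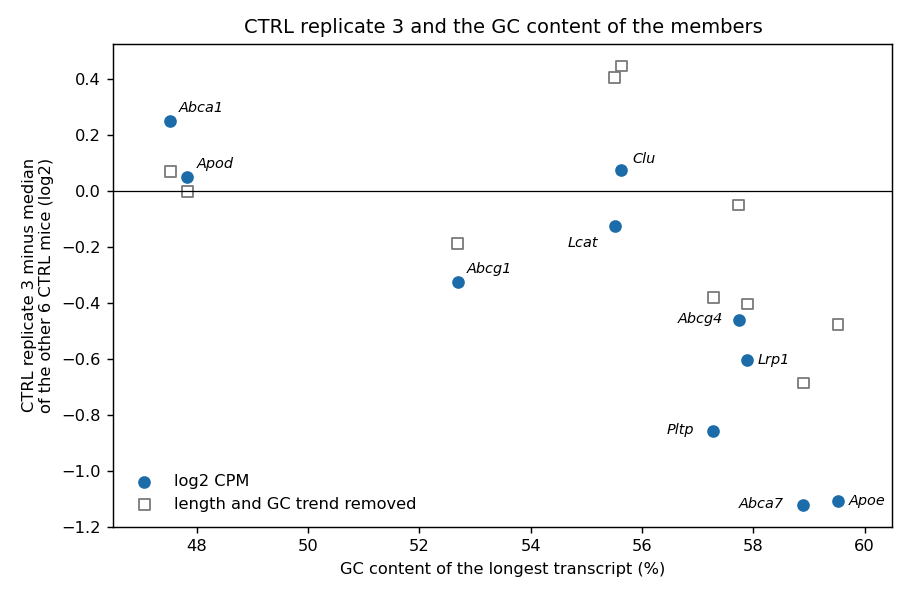
GC content of the longest transcript of each gene in percent (x axis) against the level in CTRL replicate 3 minus the median of the other 6 CTRL mice on the log2 scale (y axis), before (filled circles, named) and after (open squares) removal of the length and GC trend. The filled circles run from 0.25 for Abca1 to −1.11 for Apoe, with Abcg1 below Clu and Lcat at a lower GC content, while the squares of Clu and Lcat lie above 0.4.

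The ages were present in both groups and the estimates were computed within each. In the 12-month mice, 2 per group, Apoe had a log2 fold change of −0.49, Lrp1 −0.54, Clu −0.45 and Abca1 −0.44. In the 14-month mice, 5 against 3, these were 0.19, −0.16, −0.13 and −0.17. The change with age was not past the test for any of the 10 genes (edgeR interaction, adjusted p at least 0.905), and the lowest unadjusted interaction p-values were 0.0558 for Apoe and 0.0620 for Lcat. With 2 mice per group at 12 months, these age-wise values have little precision. The 14-month CTRL mice also include CTRL replicate 3, which had the lowest level of Apoe (4.70 log2 CPM) and of Lrp1 (9.55). No age-wise fit was run without that library, so how far the difference between the ages rests on it was not tested.

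Markers of some of the cells that make these proteins differed between the groups. In bulk cortex, fewer cells of a type and less RNA per cell cannot be told apart. The marker lists were written with earlier results of these data known. They hold Tmem119, Cd68 and Trem2, which the study had already reported as lower in these mice, so the counts are not a fresh test. Over all genes tested, 51.3% had a negative log2 fold change and 1.14% were lower past the adjusted test. All 12 microglial markers had negative log2 fold changes, 4 of them past the adjusted test, and their summed level was 1213 to 1820 CPM in CTRL and 834 to 1207 CPM in DPAn-6, without overlap. Among the most abundant were Csf1r at −0.50 and Ctss at −0.28 (edgeR adjusted p = 0.0282 and 0.323). All 12 markers of disease-associated microglia, a state in which Apoe is known to be raised, were also negative, with a median of −0.72 and 5 past the adjusted test. Their sums were 991 to 1660 CPM in CTRL and 655 to 989 CPM in DPAn-6, and the most abundant were Ctsd at −0.43, Axl at −0.41 and Cd9 at −0.16 (edgeR adjusted p = 0.111, 0.0195 and 0.602).

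Astrocyte markers had 10 of 12 negative values and none past the adjusted test. Their sums overlapped, at 7718 to 11730 CPM in CTRL and 6945 to 8555 CPM in DPAn-6, and the most abundant were Slc1a2 at −0.42, Gfap at 0.09 and Aldoc at −0.21 (edgeR adjusted p = 0.128, 0.877 and 0.323). Meningeal fibroblast markers were negative in 12 of 12, with 5 past the adjusted test and sums of 104 to 145 CPM against 60.1 to 110 CPM, led by Slc22a8 at −0.45, Col1a2 at −0.69 and Islr at −0.50. Mural cell markers were negative in 10 of 10, with 1 past the adjusted test, led by Rgs5, Vtn and Cspg4 at −0.20, −0.10 and −0.09. Cspg4 is also on the oligodendrocyte precursor list. Their sums of 419 to 452 CPM in CTRL did not overlap those in DPAn-6. Their mean log2 CPM did overlap, at 4.66 to 4.986 in CTRL and 4.461 to 4.704 in DPAn-6. Oligodendrocyte markers (Mbp 0.22, Mobp −0.04) and neuron markers (Camk2a −0.21, Snap25 0.11, Syt1 0.02) were positive in 10 of 12 each, with none past the adjusted test.

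The remaining lists were smaller or mixed. Oligodendrocyte precursor markers (Olig1 0.20, Pdgfra −0.22, Gpr17 −0.05) had 2 of 6 positive, and endothelial markers (Flt1 −0.19, Slco1a4 −0.14, Abcb1a −0.07) had 5 of 10 positive. Blood markers (Ptprc −0.44, Hbb-bs −0.18, Hba-a1 −0.29) were negative in all 6 tested. Choroid plexus markers, led by Ttr at −6.01, Kl at −2.71 and Clic6 at −2.41, were negative in all 7 tested of 10, with none past the adjusted test. Their sums were 15.9 to 1749 CPM in CTRL and 10.7 to 28.1 CPM in DPAn-6, so this list varied widely among the CTRL mice. No marker in any list was at 0 in every mouse. Slc4a5 and Otx2 of the choroid plexus list and Ly6g and S100a9 of the blood list were at 0 in some.

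With the mean level of the microglial markers as a term in the edgeR fit, the log2 fold changes of Clu, Abca1 and Lrp1 were −0.03, −0.08 and −0.17, none at an unadjusted p below 0.05, and those of Apoe and Pltp were 0.40 and 0.38. With the astrocyte marker mean as the term, Clu was at −0.09, Abca1 at −0.14 and Lrp1 at −0.29. With the meningeal fibroblast mean they were at −0.10, −0.11 and −0.42, and with Ttr at −0.21, −0.25 and −0.40. Lrp1 alone kept an unadjusted edgeR p below 0.05 in these 3 fits. With the oligodendrocyte mean as the term the values were further from 0, at −0.33 for Clu, −0.41 for Abca1 and −0.35 for Lrp1, with unadjusted edgeR p-values of 0.0157, 0.0110 and 0.0241 and adjusted edgeR p-values of 0.407, 0.339 and 0.460. The microglial mean did not overlap between the groups, though by a narrow margin. Its lowest CTRL value was 6.024 and its highest DPAn-6 value 6.02. Treatment and the microglial level thus went largely together, and in this design their parts in these values cannot be cleanly told apart.

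**Figure D4:**
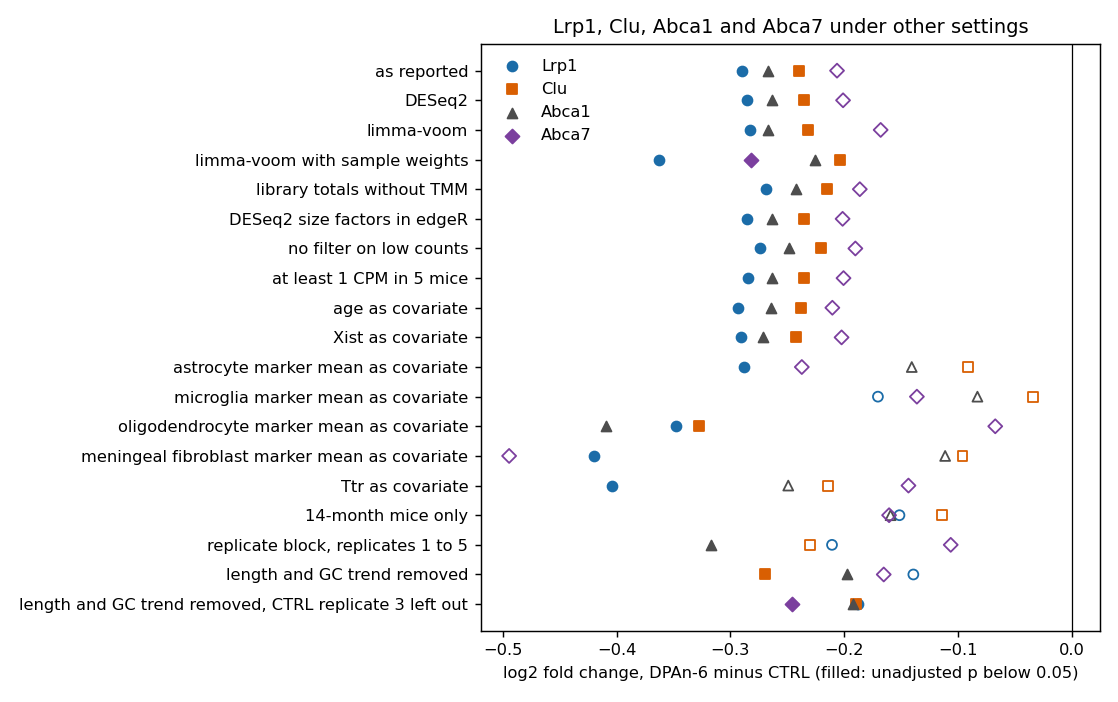
Log2 fold change of Lrp1, Clu, Abca1 and Abca7 (x axis) in the edgeR fit as reported and under each other tool, scaling, filter, covariate or subset of mice (rows, single mice left out not shown), with filled symbols where the unadjusted p was below 0.05. All values are below 0, and those of Clu and Abca1 come closest to it with the microglial marker mean as covariate, at −0.03 and −0.08.

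Across mice, after centring each group on its own mean, the 10 genes fell into patterns that depended on the same library. Over 12 mice, Pearson's r of Apoe was 0.95 with Pltp, 0.80 with Abca7, 0.80 with Lrp1 and 0.31 with Clu. Without CTRL replicate 3 these were 0.83, 0.10, 0.31 and 0.94. Apoe, Clu, Lcat and Pltp then varied together, with r between 0.79 and 0.94 for each pair over 11 mice. Clu with Lcat was 0.90 over 12 mice and 0.94 over 11. Abca1 was not close to Abcg1 in either set, at −0.06 and 0.21. These are descriptions over mice that share depth and base composition effects.

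The genes whose levels over the 12 mice were most like each member, again centred within groups, were named by rank of Pearson's r. For Apoe they were Mlc1 (0.98), Mmd2 (0.98) and Ift20 (0.98), and without CTRL replicate 3 these values were 0.94, 0.93 and 0.93. For Clu they were Spi1 (0.93), Tnfrsf1a (0.92) and Tmem176b (0.92), and for Lcat Tmem176b (0.97), Pabpc4 (0.92) and Arhgap4 (0.92). Abca1 was closest to Bach1 (0.91), Peli2 (0.89) and Snx18 (0.88), and Apod to Ppfia1 (0.87), Adam12 (0.87) and Cacng5 (0.86). Lrp1 was closest to Gm10435 (0.96), Parp1 (0.95) and Retsat (0.95), and Pltp to Slc46a1 (0.98), Caskin2 (0.97) and Nf2 (0.97). Abcg1 was closest to Klhl2 (0.95), Vps26b (0.93) and Cnst (0.92), Abcg4 to Sgta, Ccdc184 and Ypel3 (all 0.98), and Abca7 to Tubgcp6 (0.99), Wdr90 (0.98) and Phyhd1 (0.98). Without CTRL replicate 3, the values of the 3 closest to Abca7 were 0.92, 0.89 and 0.89. For Lrp1 they were 0.86, 0.86 and 0.84, for Pltp 0.94, 0.92 and 0.91, and for Abcg1 0.92, 0.88 and 0.89. For Abcg4 they were 0.94, 0.97 and 0.94, for Clu 0.94, 0.92 and 0.96, and for Lcat 0.97, 0.93 and 0.93. For Abca1 they were 0.93, 0.88 and 0.88, and for Apod 0.86, 0.86 and 0.86. The ranks were taken with that library included.

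Other genes of lipoprotein and sterol transport were followed as 5 lists with 86 genes, of which 61 passed the filter on low counts and 2 had no count in any mouse. By edgeR, 1 was higher and 1 lower after adjustment, against 1.55% of all genes in either direction. At an unadjusted p below 0.05, 2 were higher and 6 lower, which is near the 14.5% of all genes, 5.51% higher and 9.02% lower. Their median log2 fold change was −0.02 against −0.0047 over all genes, and 36 were negative and 25 positive, against 51.3% negative.

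Sorcs3, a sorting receptor of the VPS10 family made by neurons, was higher in DPAn-6. It was 5.66 to 5.91 log2 CPM with a median of 5.82 in CTRL and 6.30, 6.16, 6.24, 6.18 and 6.33 in DPAn-6. Every treated mouse lay above every CTRL mouse, with a log2 fold change of 0.40 (SE 0.06, edgeR adjusted p = 0.00551).

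Abca9, an ABCA transporter of the same subfamily as Abca1, was lower. It was 4.38 to 5.19 with a median of 4.62 in CTRL and 3.98, 4.10, 3.75, 3.74 and 3.82 in DPAn-6. Every treated mouse lay below every CTRL mouse, with a log2 fold change of −0.83 (SE 0.14, edgeR adjusted p = 0.0100). Meningeal fibroblast markers moved the same way, and with their mean as a term the value for Abca9 was −0.62, with an unadjusted edgeR p of 0.0197 and an adjusted edgeR p of 1.0. The exact permutation p was 0.00126 for both Sorcs3 and Abca9, the smallest that the 12 mice allow. Neither passed the adjusted edgeR test with the microglial mean as a term (0.34 for Sorcs3 and −0.80 for Abca9, adjusted p = 0.425 and 0.424) or in the 14-month mice only (0.43 and −0.71, adjusted p = 0.225 and 0.319).

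The other named genes of these lists did not pass the adjusted test as reported. Ldlrad4 at −0.26 and Rxra at −0.22 passed it without CTRL replicate 3 (edgeR adjusted p = 0.0324 and 0.0234). With all mice, Ldlrad4 passed with the length and GC trend removed (−0.32, edgeR adjusted p = 0.0144), and both passed by limma-voom with sample weights (−0.27 and −0.19, adjusted p = 0.0172 and 0.0362). With the trend removed and CTRL replicate 3 left out, Abca8b passed too (−0.24, edgeR adjusted p = 0.0352). Among the 9 other ABCA and ABCG transporters tested, 8 had negative values, including Abca4 at −1.37 (SE 0.44, edgeR adjusted p = 0.151) and Abca8b at −0.25 (SE 0.10, edgeR adjusted p = 0.264). Abca4 ranged from 1.531 to 3.981 in CTRL and from 1.182 to 1.529 in DPAn-6. All 5 treated mice thus lay just below every CTRL mouse, as for 1.49% of all genes. Its log2 fold change was 0.19 with the choroid plexus gene Ttr as a term. Of the 23 lipoprotein receptors and partners tested, 11 were positive and 12 negative. Ldlrad4, which carries an LDL receptor class A domain and is known as an inhibitor of TGF-beta signalling, was at −0.33 (SE 0.10, edgeR adjusted p = 0.112), and Lrp11 was at 0.18 (SE 0.07, edgeR adjusted p = 0.260).

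Of the 9 LXR and RXR transcription factors and cofactors, 6 were negative and none had an unadjusted p below 0.05. The lowest p-values were those of Rxra, a partner of LXR, at −0.15 (SE 0.09, edgeR adjusted p = 0.507), and of the co-repressor Ncor1 at −0.17 (SE 0.11, edgeR adjusted p = 0.528). Among 16 lipases and genes of intracellular cholesterol handling, 8 were negative and 8 positive. Soat1, which esterifies cholesterol for storage, was at −0.21 (SE 0.09, edgeR adjusted p = 0.293). Of 21 other apolipoproteins only 4 passed the filter, and the lowest p-values there were those of Apoc1 at −0.48 (SE 0.36, edgeR adjusted p = 0.596), with 3 to 23 counts, and Apol8 at 0.13 (SE 0.13, edgeR adjusted p = 0.745).

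**Figure D5:**
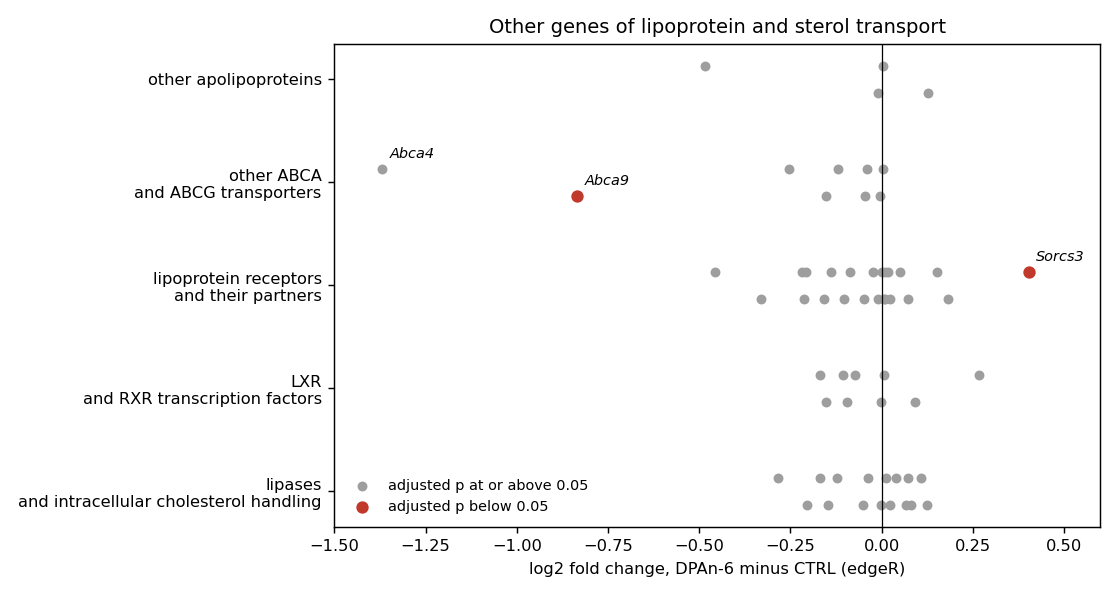
Log2 fold change, DPAn-6 minus CTRL (x axis), of the 61 tested genes of 5 lists of lipoprotein and sterol transport (rows), with genes at an edgeR adjusted p below 0.05 in red. Sorcs3 at 0.40 and Abca9 at −0.83 are the 2 red points, and Abca4 at −1.37 is the lowest value.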

How the data were processed

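The authors aligned the reads with STAR (version 2.5.3a in the submitters' processing notes) to GRCm38 with Ensembl release 88 and deposited raw counts per gene without normalization. STAR's gene counts take reads placed uniquely, and how strand was treated is not stated. Positions, exon lengths and overlaps came from GENCODE M21, in which 50339 of 50563 identifiers matched, and promoters from RefSeq GRCm38.p6.

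Counts of 7 CTRL and 5 DPAn-6 mice were compared with R 4.3.3 and edgeR 4.0.16 (filterByExpr by group, TMM, glmQLFit and glmQLFTest without covariate) with Benjamini-Hochberg adjustment over all 15688 genes and a threshold of 0.05. The study's methods name limma-voom, which was run as an alternative. Mean log2 CPM of each gene was compared over the 792 splits of the mice (exact permutation test, two-sided), of which the smallest p is 0.00126. The code was tested on simulated data. Alternatives were DESeq2 1.42.0, limma 3.58.1 (voom with and without sample weights), other scalings and filters, age, Xist or marker covariates, 14-month mice only, removal of the length and GC trend (loess, span 0.3), a replicate block and each mouse left out.

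The genes named are the 10 members, their 3 most alike genes, the 3 most abundant markers per cell list and, per pathway list, genes past the adjusted test plus those with the 2 lowest p-values, of which some are not reported here. Members and lists were chosen with earlier results of these data known.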

Additional observations from a re-analysis of the deposited data

Results flagged for a closer look

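Within each group, the highest and lowest mouse of the members and named pathway genes were compared with the others by Dixon's test in 44 groups, of which chance flags about 5%. In CTRL replicate 3, the lowest value of the group stood apart for Apoe (4.70 log2 CPM), Abcg4 (5.76), Abca7 (4.24), Lrp1 (9.55) and Rxra (5.18), and the highest value stood apart for Ncor1 (8.99). These 6 come from the 1 library whose genes over 57% GC were low and whose genes under 42% GC were high, as described above. In DPAn-6 replicate 1, Lrp11 at 7.35 log2 CPM lay apart below the other 4 mice of its group.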

How the results depend on the processing

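Lrp1, Clu, Abca1, Abca7 and Apod kept a negative log2 fold change, and Abcg4 a positive one, under all 30 alternatives run per gene, 29 planned and 1 added after the data were seen. Lrp1 had an unadjusted p below 0.05 in 26 of them, Clu in 22 and Abca1 in 20, and an adjusted p below 0.05 was reached by Lrp1 in 2 and Abca7 in 3. The alternatives refit the same mice, 12 of them with 1 mouse left out, so they are not independent and their number is not separate support. The share of all genes past the adjusted test is given only for the edgeR fit as reported (1.55%) and without CTRL replicate 3 (6.1%). At an unadjusted p below 0.05 it is given only as reported (14.5%). Counts below from other settings have no such share beside them and are not results about these genes. The count of members past the adjusted test, 0 as reported, was 2 by limma-voom with sample weights (Lrp1 and Abca7), 1 with the length and GC trend removed and CTRL replicate 3 left out, and 0 to 2 with each mouse left out, the 2 being without CTRL replicate 3. The count at an unadjusted p below 0.05, 3 as reported, was 0 with the microglial mean as covariate and in 14-month mice only, 1 with the astrocyte or meningeal mean or Ttr as covariate, 5 with the trend removed and CTRL replicate 3 left out, and 1 to 4 with each mouse left out, the 1 being without DPAn-6 replicate 3 or 4. The count of pathway genes past the adjusted test, 2 as reported, was 4 with sample weights, 3 with the trend removed and all mice kept, 1 with the astrocyte or oligodendrocyte mean, 0 with the microglial or meningeal mean or Ttr and in 14-month mice only, 5 with the trend removed and CTRL replicate 3 left out, and 2 to 4 with each mouse left out, the 4 being without CTRL replicate 3.

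Abca4, at −1.37 as reported the lowest of the pathway genes, changed sign to 0.19 with Ttr as covariate. Smaller values also changed sign. Apoe was at 0.054 with the astrocyte, 0.40 with the microglial and 0.0030 with the meningeal mean, 0.20 in 14-month mice, and −0.15 to 0.016 with each mouse left out. Its difference of means was −0.00060 on TMM-scaled log2 CPM and −0.14 without CTRL replicate 3, while that of Pltp was then −0.040. Abcg1 was at −0.0069 with sample weights, −0.022 with the oligodendrocyte mean, −0.094 with the meningeal mean and −0.066 with Ttr. Pltp was at −0.028 with sample weights, −0.036 with the trend removed and CTRL replicate 3 left out, and −0.058 to 0.12 with each mouse left out. Lcat was at −0.084 with the oligodendrocyte mean, Apol8 at −0.014 with the microglial mean and Ncor1 at 0.012 with the trend removed and CTRL replicate 3 left out. The cause of these shifts was not tested. On TMM-scaled log2 CPM the exact permutation p was 0.0404 for Clu and 0.0429 for Lrp1.

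The replicate numbers are not said to pair the mice. The deviations of same-numbered mice from their group means had correlations of 0.09, 0.02, −0.12, 0.22 and −0.07, which cannot show whether the mice were paired. With the replicate number as a block, in the 10 mice numbered 1 to 5, 0 members and 0 pathway genes passed the adjusted test, 1 member (Abca1) had an unadjusted p below 0.05, and Apoe was at 0.068. Abca9 and Sorcs3 then had edgeR adjusted p-values of 0.0536 and 0.0586.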
